A study of Rattus norvegicus with 9 samples.

Results

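The genes described here are 9 members of the renin-angiotensin and endothelin systems, Ace, Agt, Agtr1a, Mas1, Edn1, Ednra, Ednrb, Ece1 and Atp6ap2, chosen by their gene symbols from the 22864 gene rows of a deposited FPKM table. FPKM counts fragments relative to gene length and to the size of the library, so levels can be compared between genes per length. RNA of the left ventricle was sequenced from total RNA in 9 rat samples of 3 groups with 3 samples each. WKY are Wistar Kyoto rats with normal blood pressure, SHR are spontaneously hypertensive rats, and SHR_OMT are SHR given oxymatrine, an alkaloid of Sophora roots. Both SHR groups carry the same strain background, the WKY labels name no treatment, and the sources used here do not give sex, age, dose or duration of treatment. Nor do the labels state that each sample is a separate animal, so a p-value here reflects how far these samples scatter, which may be technical.

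Angiotensinogen, the product of Agt, is cut to angiotensin I, which angiotensin-converting enzyme (Ace) turns into angiotensin II, a constrictor peptide that acts mainly through the receptor encoded by Agtr1a. Mas1 encodes a receptor for angiotensin-(1-7), which opposes several of those actions, and Atp6ap2 encodes the prorenin receptor, which is also an accessory protein of the vacuolar proton pump. Edn1 encodes the precursor of endothelin-1, a constrictor peptide released mainly by endothelium, and Ece1 encodes the enzyme that cuts the precursor to its active form. In the heart and vessels the type A receptor (Ednra) sits mostly on muscle cells, while the type B receptor (Ednrb) also sits on endothelium, where it takes up endothelin and prompts release of nitric oxide and prostacyclin.

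Of the 7 members that could be tested, 2 were lower in SHR than in WKY, where 33.9% of all tested genes were called, 10.8% higher and 23.1% lower. Mean Ednra fell by 28% and mean Ece1 fell by 18.9%. Also 2 were lower in SHR_OMT than in WKY, where 24.9% of all genes were called, 10.2% higher and 14.6% lower. Mean Edn1 fell by 47.6% there and mean Ece1 fell by 26.7%. Between SHR_OMT and SHR limma called 0 of the 7, where 0.241% of all genes were called, 0.153% higher and 0.0883% lower. A call is an adjusted p under 0.05 in limma's test over 12451 genes. Ace, Agtr1a, Atp6ap2 and Ednrb were not called in any of the 3 comparisons. Agt and Mas1 were too low to judge.

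Stretches upstream of Edn1 and Ece1 are shown because these are the ligand and the processing enzyme called against WKY. They are from RefSeq, build GRCr8, read 5′ to 3′ on the gene's strand, and the authors' values come from another build. For Edn1 the stretch is chr17:22666778-22666917 on the minus strand, from 230 to 91 bases upstream of the annotated start, and capitals mark the motifs TATAAA and AGATAA (the latter on the opposite strand). For Ece1 it is chr5:155360876-155360985 on the plus strand, from 155 to 46 bases upstream, and capitals mark CCAAT and GGGCGG, all on the opposite strand.
Edn1: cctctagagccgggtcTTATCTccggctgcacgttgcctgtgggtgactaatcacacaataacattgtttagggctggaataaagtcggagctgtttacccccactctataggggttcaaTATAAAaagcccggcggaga
Ece1: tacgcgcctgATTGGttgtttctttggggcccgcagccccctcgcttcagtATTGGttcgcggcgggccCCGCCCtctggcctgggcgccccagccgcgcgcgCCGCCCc
The 250 bases upstream of each start were searched on both strands for 6 motifs that do not overlap each other in either stretch. The motif TATAAA lies 110 bases upstream in Edn1, and it was found in 13.1% of 27457 rat genes with such a window. AGATAA, the letters bound by GATA factors, lies 214 bases upstream in Edn1, and 10% of genes have it. Ece1 holds CCAAT at 145 and 104 bases upstream and GGGCGG at 86 and 52, and these motifs occur in 34.3% and 32.4% of genes. Neither gene's window holds the exact letters CACGTG, the E-box of clock and other factors (5.79% of genes), or TGANTCA, the AP-1 motif (6.36%). Near matches were not searched for, and the Edn1 stretch holds tgactaa, which is close to TGANTCA. The absence of the exact letters therefore does not show that Edn1 lacks an AP-1 site. Windows were found for 8 of the 9 members, all but Agt, and those of Agtr1a, Mas1 and Ednra are not shown because the annotated gene span does not begin at the window's start site. These matches are a description of letters.

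In all 3 groups the converting enzyme gene Ece1 had the highest FPKM of the 9 members, with a mean over 9 samples of 55.9, above 87.7% of the 12451 genes tested. It was followed by Atp6ap2 at 17.8, Ednrb at 15.5, Ednra at 13.1 and Ace at 6.54 FPKM. Edn1 and Agtr1a had low levels of 2.27 and 2.09 FPKM, above 12.2% and 10.9% of tested genes. In WKY the sample ranges of Ednra and Ednrb overlapped, whereas in SHR and in SHR_OMT every Ednrb value lay above every Ednra value. The ranges of Atp6ap2 and Ednrb overlapped in all 3 groups, and those of Edn1 and Agtr1a in SHR. In WKY each Edn1 value lay above each Agtr1a value, with a narrow gap between 2.48 and 2.41 FPKM. In SHR_OMT the order was turned, with Agtr1a at 2.06 or more and Edn1 at 1.72 or less.

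**Figure D1:**
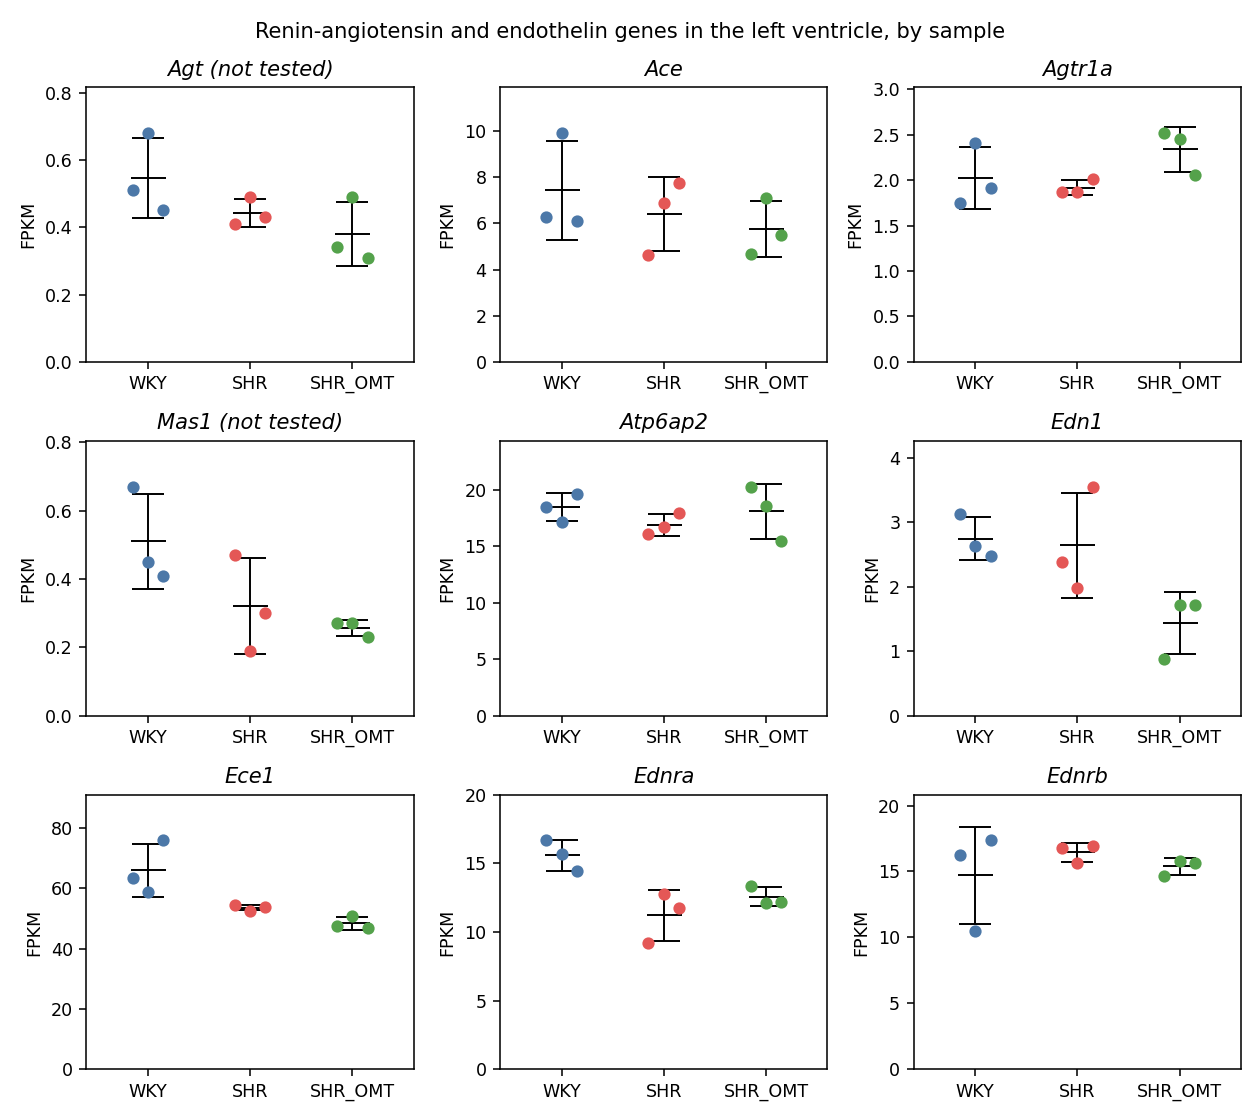
FPKM of the 9 members in each sample, with the group on the x axis, points for the 3 samples (replicates 1 to 3 from left to right), a bar for the mean and whiskers for the SD. Ece1 lies at 58.73 FPKM or more in WKY, at 52.54 to 54.27 in SHR and at 50.86 or less in SHR_OMT.

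Agt, the precursor of all angiotensins, was listed at 0.51, 0.68 and 0.45 FPKM in WKY replicates 1 to 3, at 0.41, 0.49 and 0.43 in SHR and at 0.34, 0.49 and 0.31 in SHR_OMT. Mas1 was listed at 0.67, 0.45 and 0.41 FPKM in WKY, at 0.47, 0.19 and 0.30 in SHR and at 0.27, 0.27 and 0.23 in SHR_OMT. The Agt groups overlapped throughout, and the Mas1 values of SHR_OMT all lay below those of WKY. Both had means under 1 FPKM, the level set for testing, and among 1505 genes between 0.25 and 0.75 FPKM the median within-group coefficient of variation was 34.3%. With no filter on low values, limma's adjusted p over 18865 genes was 0.0793 for Mas1 and 0.159 for Agt in SHR_OMT against WKY, and it was higher in the other comparisons. Read depth is unknown, so neither gene's level can be given a counting error.

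Edn1, the endothelin-1 gene, had 3.12, 2.63 and 2.48 FPKM in WKY, 2.39, 1.98 and 3.55 in SHR, and 0.88, 1.71 and 1.72 in SHR_OMT. The WKY and SHR values overlapped, and all 3 treated samples lay below all 6 others. Against WKY the treated mean was 1.44 ± 0.482 FPKM (SD, n = 3) against 2.74 ± 0.335, and Edn1 fell by 0.64 on the log2(FPKM + 1) scale (SE 0.186, 95% interval −1.05 to −0.22, limma adjusted p = 0.0338). With pseudocount 1 this scale understates the change of low genes. The call was lost in 6 of the 17 alternatives that test Edn1, among them each fit without 1 WKY sample (adjusted p = 0.11, 0.065 and 0.0595 without replicates 1, 2 and 3), without SHR_OMT replicate 1 (0.103) and with no filter on low values (0.0591). Against untreated SHR, whose mean was 2.64 ± 0.814 FPKM, the log2 difference was −0.58 (95% interval −0.99 to −0.16, limma adjusted p = 0.277), which did not pass. With the spread of Edn1, a log2 difference of about 1.17 would have been needed to pass in that comparison. The within-group coefficient of variation of Edn1 was 25.5%, where the median of 1489 genes between 1.5 and 3 FPKM was 15.9% and their upper quartile 22.9%.

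Ece1, the endothelin-converting enzyme gene, had 63.37, 58.73 and 75.79 FPKM in WKY, 54.27, 52.54 and 53.62 in SHR, and 47.58, 50.86 and 46.70 in SHR_OMT. The 3 groups did not overlap, with WKY highest and SHR_OMT lowest. Between SHR and WKY the means were 53.5 ± 0.874 and 66.0 ± 8.82 FPKM (SD, n = 3), and Ece1 fell by 0.29 on the log2 scale (SE 0.0829, 95% interval −0.48 to −0.10, limma adjusted p = 0.0243). Without WKY replicate 3, the library with the highest Ece1, it fell by 0.19 (adjusted p = 0.045). The call was lost without any 1 of the SHR samples (adjusted p = 0.0515, 0.0675 and 0.0551 without replicates 1, 2 and 3) and with median-of-ratios scaling (log2 difference −0.20, adjusted p = 0.0939). Comparing SHR_OMT with WKY, it fell by 0.43 (95% interval −0.62 to −0.25, limma adjusted p = 0.00558), and the call held in all 18 alternatives, with adjusted p-values of 0.00333 to 0.0233. Between SHR_OMT and SHR the log2 difference was −0.14 (95% interval −0.33 to 0.04, adjusted p = 0.533). The summed FPKM of 14 endothelial markers was likewise higher in WKY, at 1079 to 1258, than in SHR, at 858.3 to 952.6, or SHR_OMT, at 887.2 to 950.7. The ratio of Ece1 to Edn1 was 20.3, 22.3 and 30.6 in WKY, 22.7, 26.5 and 15.1 in SHR, and 54.1, 29.7 and 27.2 in SHR_OMT. Its treated values all lay above those of SHR, and the exact two-sided permutation p was 0.1, the smallest that 3 samples against 3 allow. The ratio overlapped between SHR and WKY (exact permutation p = 0.6) and between SHR_OMT and WKY (0.3).

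Ednra, the type A receptor gene, had 16.67, 15.65 and 14.44 FPKM in WKY, 9.18, 12.78 and 11.72 in SHR, and 13.36, 12.13 and 12.20 in SHR_OMT. All SHR and SHR_OMT values lay below all WKY values, and SHR overlapped with SHR_OMT. Between SHR and WKY, at 11.2 ± 1.85 and 15.6 ± 1.12 FPKM (SD, n = 3), Ednra fell by 0.45 (SE 0.106, 95% interval −0.69 to −0.21, limma adjusted p = 0.0108). The call held in all 18 alternatives, with log2 differences of −0.54 to −0.32 and adjusted p-values of 0.00708 to 0.0441. Comparing SHR_OMT with WKY, the log2 difference of Ednra was −0.29 (95% interval −0.53 to −0.05) and the adjusted p 0.0747, and it passed in 2 of 18 alternatives, without SHR replicate 1 (0.0211) and with only the groups compared (0.0261). Between SHR_OMT and SHR the log2 difference was 0.16 (95% interval −0.08 to 0.40, adjusted p = 0.602).

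Ednrb, the type B receptor gene, had 16.25, 10.52 and 17.35 FPKM in WKY, 16.78, 15.63 and 16.97 in SHR, and 14.67, 15.83 and 15.68 in SHR_OMT. WKY replicate 2 lay below the other 8 samples, and the groups overlapped. The log2 difference between SHR and WKY was 0.18 (95% interval −0.15 to 0.51, limma adjusted p = 0.368), and without WKY replicate 2 it was −0.03. The differences of SHR_OMT from SHR and from WKY were −0.09 (95% interval −0.42 to 0.24) and 0.09 (−0.24 to 0.42), neither of which passed. The ratio of Ednra to Ednrb was 1.03, 1.49 and 0.832 in WKY, 0.547, 0.818 and 0.691 in SHR, and 0.911, 0.766 and 0.778 in SHR_OMT. All SHR ratios lay below all WKY ratios, by a narrow gap, and the exact two-sided permutation p was 0.1, the smallest possible here. The SHR_OMT ratios overlapped with both other groups (exact permutation p = 0.3 against SHR and 0.2 against WKY). Of 2 ratios between members, each tested in 3 comparisons, neither could have reached 0.05.

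**Figure D2:**
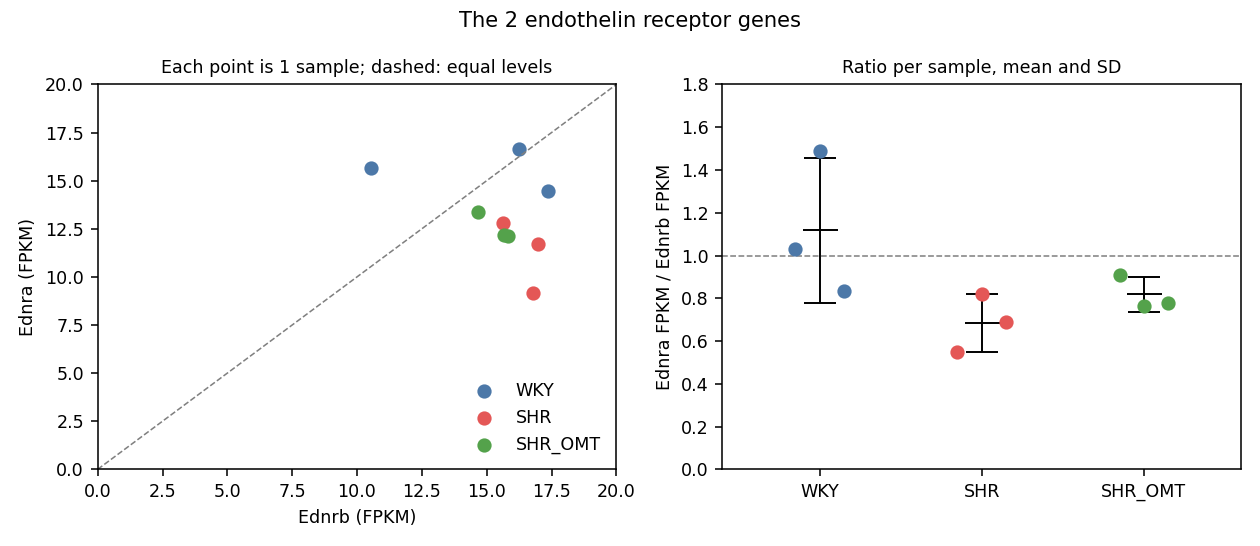
Left, Ednra against Ednrb FPKM in each of the 9 samples, with a dashed line at equal levels. Right, the ratio of Ednra to Ednrb per sample with mean and SD, which lies between 0.547 and 0.818 in SHR and between 0.832 and 1.49 in WKY.

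Ace, the angiotensin-converting enzyme gene, had 6.29, 9.92 and 6.12 FPKM in WKY, 4.62, 6.90 and 7.74 in SHR, and 4.69, 7.09 and 5.5 in SHR_OMT. The groups overlapped, and the spread was wide, with a within-group coefficient of variation of 26.0% where the median of 2480 genes between 5 and 10 FPKM was 8.56% and their upper quartile 11.8%. The log2 difference of SHR from WKY was −0.18 (95% interval −0.66 to 0.29, limma adjusted p = 0.537), and that of SHR_OMT from SHR was −0.13 (−0.60 to 0.35). For SHR_OMT against WKY it was −0.31 (95% interval −0.78 to 0.17, limma adjusted p = 0.313). Without WKY replicate 2, the sample with the highest Ace, the differences from WKY were 0.02 for SHR and −0.11 for SHR_OMT, and without SHR_OMT replicate 1 the latter was −0.19. With this spread a log2 difference of about 0.61 would have been needed in SHR against WKY and 1.33 in SHR_OMT against SHR.

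Agtr1a, the main angiotensin II receptor gene, had 1.75, 2.41 and 1.91 FPKM in WKY, 1.87, 1.87 and 2.01 in SHR, and 2.52, 2.45 and 2.06 in SHR_OMT. Every treated value lay above every untreated SHR value, and both overlapped with WKY. The log2 difference of SHR_OMT from SHR was 0.20 (95% interval −0.04 to 0.43, limma adjusted p = 0.502), and that of SHR from WKY was −0.05 (−0.28 to 0.19). Atp6ap2, the prorenin receptor gene, had 18.52, 17.19 and 19.65 FPKM in WKY, 16.08, 16.68 and 17.96 in SHR, and 20.28, 18.61 and 15.47 in SHR_OMT. Its groups overlapped, and its log2 differences were −0.12 for SHR against WKY (95% interval −0.33 to 0.09), 0.09 for SHR_OMT against SHR (−0.12 to 0.30) and −0.03 for SHR_OMT against WKY (−0.24 to 0.18). On the log2(FPKM + 1) scale these intervals leave out differences beyond 0.33 in either direction for Atp6ap2. Those of Agtr1a leave out differences beyond 0.43 on that scale, which understates the change of a gene this low. With a pseudocount of 0.1 the Agtr1a difference of SHR_OMT from SHR was 0.27.

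The members' counts can be read beside those of all 12451 tested genes. For SHR against WKY both called members had an unadjusted p under 0.05, as did 44.9% of all genes. The same 2 members had groups that did not overlap, both lower, beside 48.1% of all genes, and 33% of all genes lay lower without overlap. The members' median log2 difference was −0.12 and that of all tested genes −0.08. Among all genes 1343 were called higher and 2872 lower, and with median-of-ratios scaling 2033 higher and 1789 lower, while 1911 were called lower without WKY replicate 1. For SHR_OMT against SHR 1 of 7 members, Edn1, had an unadjusted p under 0.05, beside 12.1% of all genes. There, 3 members had groups that did not overlap, Edn1 and Ece1 lower and Agtr1a higher, beside 17.2% of all genes (13.2% higher and 3.99% lower). The medians were −0.09 for the members and 0.04 for all genes. For SHR_OMT against WKY 3 of 7 members, Edn1, Ece1 and Ednra, had an unadjusted p under 0.05, beside 38.9% of all genes. The same 3 had groups that did not overlap, all lower, beside 42.7% of all genes (25.7% lower), and the medians were −0.29 and −0.04. The 3 comparisons share groups, so they are not independent.

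**Figure D3:**
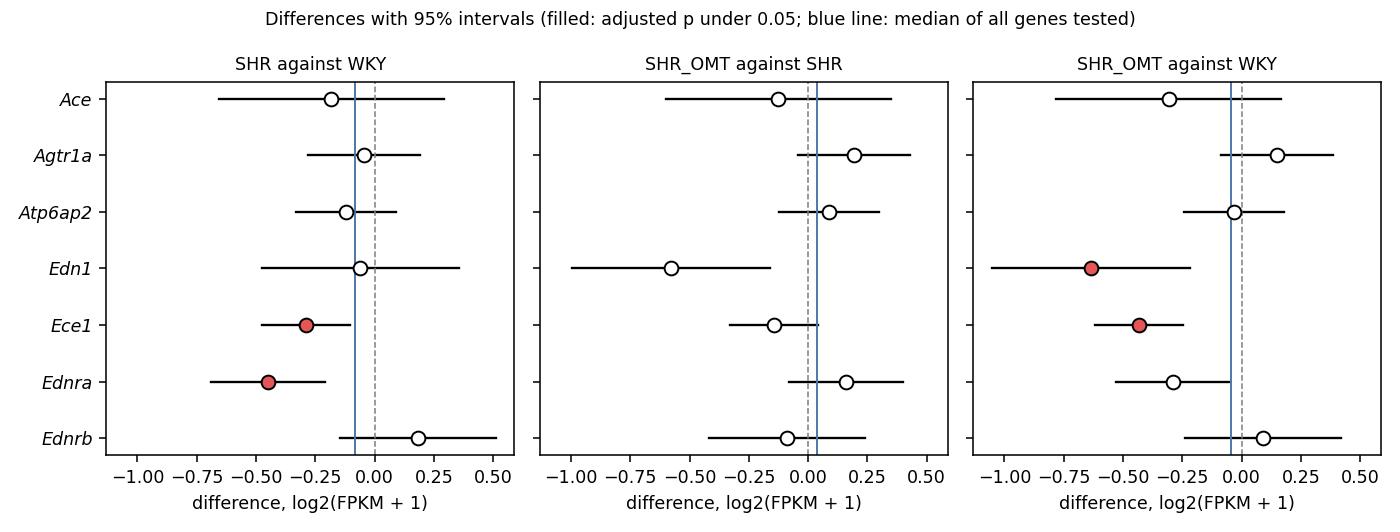
Log2 differences on the log2(FPKM + 1) scale with 95% intervals for the 7 tested members in the 3 comparisons, filled where the adjusted p was under 0.05, with a dashed line at 0 and a blue line at the median of all tested genes. Ednra and Ece1 are filled at −0.45 and −0.29 for SHR against WKY, and Edn1 and Ece1 at −0.64 and −0.43 for SHR_OMT against WKY.

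By the authors' deposited table, only 1 of the 9 members had a q-value under 0.05 for SHR over WKY, Ednra, with a log2 ratio of −0.36 and a q of 0.0288. The authors' deposited table gave Ece1 a log2 ratio of −0.20 and a q of 0.124 there. For treated over untreated SHR, the authors' deposited table gave none of the 9 a q under 0.05, with log2 ratios of −0.70 for Edn1 (q = 0.929) and −0.20 for Ece1 (q = 0.0869).

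Of 22 other genes of the renin-angiotensin-aldosterone system, 13 were tested, 6 lay under 1 FPKM on average and 3 (Agtr1b, Agtr2 and the cathepsin G gene Ctsg) had a row without values. Comparing SHR with WKY, 2 of the 13 fell and 0 rose, beside 23.1% and 10.8% of all tested genes. Leaving out SHR replicate 1 gave 4 that fell. The 2 that fell with all samples were Prcp, a carboxypeptidase that inactivates angiotensin II, and Rnpep, aminopeptidase B. Prcp had 5.05 ± 0.788 against 8.07 ± 0.216 FPKM (n = 3, log2 difference −0.59, limma adjusted p = 0.00209). Rnpep had 36.6 ± 4.27 against 49.3 ± 1.56 FPKM (−0.42, adjusted p = 0.00288). Both calls held in all 18 alternatives. In SHR_OMT against WKY only Rnpep of the 13 fell (−0.27, limma adjusted p = 0.0308), beside 14.6% of all tested genes called lower. That call was lost in 7 of 18 alternatives, among them median-of-ratios scaling and each fit without 1 sample of either group. The adjusted p-values were up to 0.0999 without WKY replicate 1. Between SHR_OMT and SHR limma called 0 of the 13. Abundant genes of the list were Ctsd, the lysosomal protease cathepsin D, at 209.03 to 248.28 FPKM, Hsd11b1, which regenerates active glucocorticoid, at 47.66 to 63.58, and Enpep, the aminopeptidase that turns angiotensin II into angiotensin III, at 33.41 to 44.54. Nr3c2, the mineralocorticoid receptor gene, had 6.15 to 7.24 FPKM in the 9 samples and was not called. Anpep, another angiotensin-degrading aminopeptidase, had 6.42, 6.70 and 6.49 FPKM in WKY, 5.89, 3.39 and 4.40 in SHR, and 8.74, 7.03 and 5.85 in SHR_OMT, and did not pass in SHR against WKY (adjusted p = 0.0547).

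Cyp11b2, the aldosterone synthase gene, had at most 0.15 FPKM and the bradykinin B1 receptor gene Bdkrb1 at most 0.06. Hsd11b2, which protects the mineralocorticoid receptor from glucocorticoid, had 0.29, 0.22 and 0.24 FPKM in WKY, 0.04, 0.08 and 0.17 in SHR, and 0.15, 0.08 and 0.08 in SHR_OMT. All these lie too low to judge. Among 6 other endothelin genes only Ece2, a second converting enzyme, was tested, at 1.13 to 1.84 FPKM, and it was not called. The other ligand genes were near the floor, Edn3 being listed at 0 in 8 of 9 libraries and Edn2 having at most 0.43 FPKM.

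**Figure D4:**
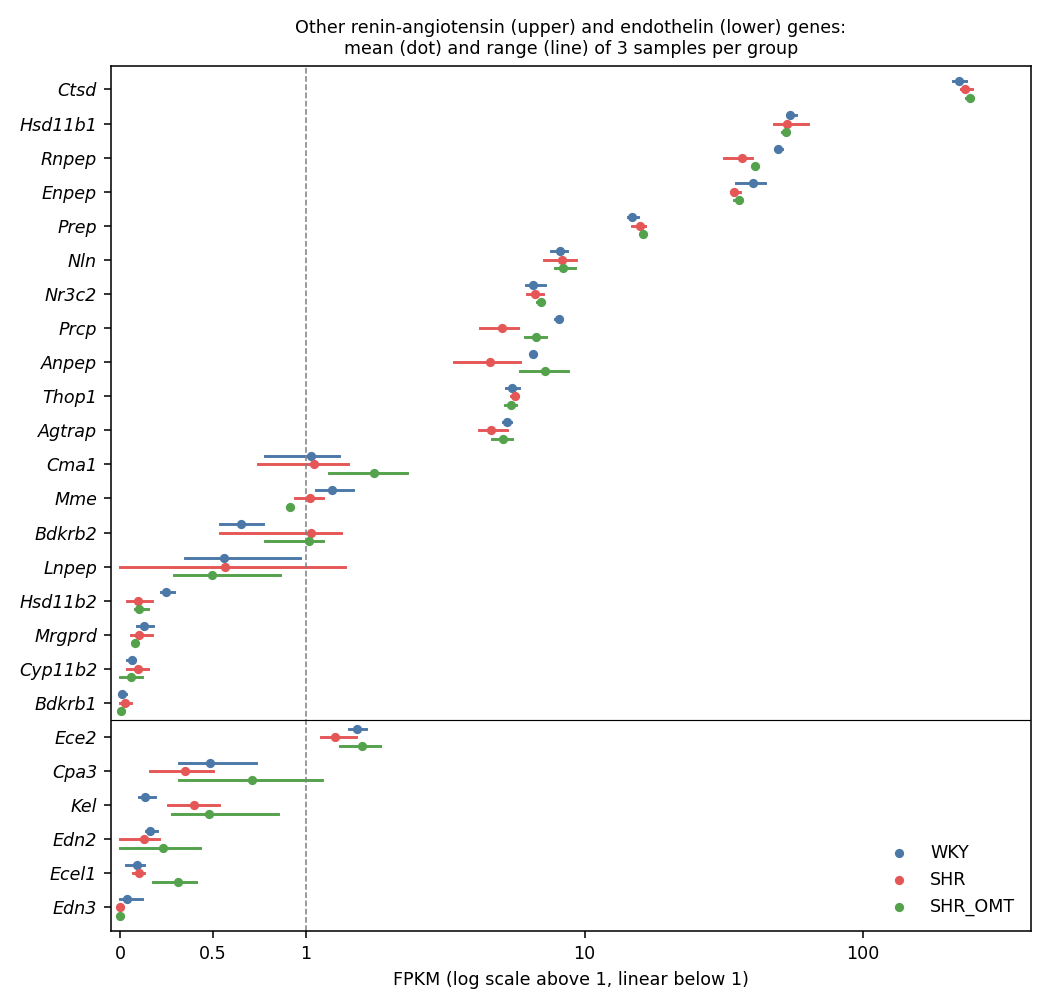
FPKM of 19 other renin-angiotensin-aldosterone genes (upper) and 6 other endothelin genes (lower) with values, as mean (dot) and range (line) of the 3 samples in each group, on an axis that is logarithmic above 1 FPKM and linear below. Genes with a mean under 1 FPKM, the level marked by the dashed line, were not tested, and Prcp and Rnpep lie lower in SHR than in WKY without overlap.

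Angiotensin and endothelin receptors act through the same G proteins, phospholipase C, calcium release and protein kinase C, and of 24 tested genes of these steps 3 rose and 5 fell in SHR against WKY. Gna12, a G protein alpha subunit gene, rose by 0.49 (adjusted p = 4.31e-05), and Prkca, the protein kinase C alpha gene, by 0.47 (adjusted p = 0.00556). Itpr2, a calcium release channel of the IP3 receptor family, fell by 0.50 (adjusted p = 0.00496) and Arhgef1, a guanine nucleotide exchange factor gene, by 0.25 (adjusted p = 0.00351). The 8 called of 24 stand beside 33.9% of all tested genes called, and the median log2 difference was −0.13 over the list and −0.08 over all genes tested. With median-of-ratios scaling 4 rose and 2 fell, with quantile normalization 3 rose and 2 fell, and 3 fell without WKY replicate 1, WKY replicate 3, SHR replicate 1 or SHR replicate 2. For SHR_OMT against WKY 3 rose and 5 fell, beside 10.2% and 14.6% of all tested genes. Gna12 stood at 0.41 (adjusted p = 0.000135) and Prkce, protein kinase C epsilon, at 0.60 (adjusted p = 0.00209) in that comparison. There 0 of the 24 were called lower without WKY replicate 3 or SHR_OMT replicate 3, and 1 to 3 without WKY replicate 1 or 2 or SHR_OMT replicate 1. In SHR_OMT against SHR limma called 0 of the 24.

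Of 17 genes for subunits of the vacuolar proton pump, with which the product of Atp6ap2 assembles, 3 rose and 1 fell in SHR against WKY, and limma gave the same counts in SHR_OMT against WKY. Of all tested genes 33.9% were called in the first comparison and 24.9% in the second. In SHR against WKY Atp6v1g2 rose from 3.45 ± 0.433 to 9.89 ± 2.53 FPKM (n = 3, log2 difference 1.27, adjusted p = 0.000363), Atp6v0a2 rose by 0.70 and Atp6v1d by 0.41. Atp6v1g1 fell by 0.20 (adjusted p = 0.0132), and was not called lower without WKY replicate 1 or with median-of-ratios scaling, where 7 of the 17 rose in SHR against WKY. Its call in SHR_OMT against WKY was lost in those alternatives and without SHR_OMT replicate 3. In SHR_OMT against SHR limma called 0 of the 17.

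In bulk tissue fewer cells of a type and less RNA per cell cannot be told apart. Endothelial cells, a main source of Edn1, Ece1 and Ace, were followed by 14 markers, none listed at 0 in any library and 13 tested. In SHR against WKY 9 of the 13 fell, beside 23.1% of all tested genes, and 0 rose, with a median log2 difference of −0.43. In SHR_OMT against WKY 10 of the 13 fell, beside 14.6% of all tested genes, and 0 rose, with a median of −0.34. With median-of-ratios scaling 7 and 8 fell, and in SHR_OMT against WKY 6 fell without WKY replicate 1, WKY replicate 3 or SHR_OMT replicate 1. Between SHR and WKY Emcn, the endomucin gene, fell by 0.68 (limma adjusted p = 0.000134), Erg, an endothelial transcription factor gene, by 0.74 (adjusted p = 0.00041) and Pecam1, a junction protein gene, by 0.47 (adjusted p = 0.000978). The summed FPKM of the 14 was 1079 to 1258 in WKY, 858.3 to 952.6 in SHR and 887.2 to 950.7 in SHR_OMT, so that WKY lay above both other groups. Per 1000 FPKM of that sum, a scale chosen after the values were seen, Ece1 had 52.0, 54.4 and 60.2 FPKM in WKY, 57.0, 61.2 and 56.8 in SHR, and 53.6, 53.5 and 51.1 in SHR_OMT. On that scale SHR and WKY overlapped for Ece1, as did SHR_OMT and WKY, while all SHR_OMT values lay below all SHR values. Ace had 5.16, 9.19 and 4.86 per 1000 in WKY, 4.85, 8.04 and 8.2 in SHR, and 5.29, 7.46 and 6.02 in SHR_OMT, with overlapping groups. Edn1 had 2.56, 2.44 and 1.97 per 1000 in WKY, 2.51, 2.31 and 3.76 in SHR, and 0.992, 1.8 and 1.88 in SHR_OMT. The treated samples lay below all others, with a narrow gap between 1.88 and 1.97. Ednrb had 13.3, 9.75 and 13.8 per 1000 in WKY, 17.6, 18.2 and 18 in SHR, and 16.5, 16.7 and 17.2 in SHR_OMT, with WKY below both other groups. Before scaling the Ednrb groups overlapped, and the sum that divides them was itself highest in WKY. The part of endothelial content in these differences was not tested further.

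Smooth muscle cells and pericytes, which carry the type A receptor, were followed by 12 markers, none at 0. Of these 2, Des and Abcc9, rose in SHR against WKY and 1, Smtn, fell, beside 10.8% and 23.1% of all tested genes. Without WKY replicate 3, 5 fell, and without SHR replicate 2, 1 rose. The summed FPKM of the 12 was 1245 to 1521 in WKY, 1512 to 1555 in SHR and 1488 to 1580 in SHR_OMT, most of it Des, the desmin gene, which heart muscle cells also express. Without Des the sum was 472.7 to 616.4 FPKM in WKY, 469.8 to 498.1 in SHR and 494.4 to 547.8 in SHR_OMT, with overlapping groups. Between SHR and WKY 10 of the 12 had lower estimates, among them Acta2, the smooth muscle actin gene (log2 difference −0.53, limma adjusted p = 0.157), and Myh11, the smooth muscle myosin gene (−0.51, adjusted p = 0.144), and the median was −0.13. Of 12 fibroblast markers, none at 0, 2 fell in SHR against WKY (1 without WKY replicate 2, SHR replicate 1 or SHR replicate 2), beside 23.1% of all tested genes. In SHR_OMT against WKY 4 fell (0 without SHR_OMT replicate 1 or 3, 1 without WKY replicate 2 or 3, 2 without SHR replicate 1), beside 14.6% of all tested genes. The fibroblast sums were 3341 to 4173 FPKM in WKY, 3127 to 3474 in SHR and 2737 to 3612 in SHR_OMT. Of 12 heart muscle markers 5 rose and 0 fell in SHR against WKY, and their sums were 46540 to 46990 FPKM in WKY, 48630 to 50880 in SHR and 44340 to 49560 in SHR_OMT. The part of these cell types in the Ednra result was not tested. WKY replicate 2, which had the lowest Ednrb and the highest Ace of all samples, also had the highest fibroblast sum and, among WKY, the lowest endothelial sum. The ventricular myosin light chain gene Myl2 stood at 6942.14 to 8401.23 FPKM. The atrial Myl7 stood at 9.33, 8.06 and 1.49 in WKY and at 2.85 or less in the other 6 samples. Its call as lower in SHR than in WKY was lost in 9 of 17 alternatives. Nppa, also on the atrial list, peaked at 4450.12 and 3754.28 FPKM in SHR replicates 3 and 2, and reached at most 2606 elsewhere. Of 6 tested atrial markers, 4 had lower and 2 higher estimates in SHR against WKY. Whether any sample held atrial tissue was not tested.

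For each called member the 3 tested genes most like it over the 9 samples were sought by Pearson's r of log2(FPKM + 1), which is a description of samples that share group and library. Ednra went most closely with Unc13b, Ttc13 and RGD1565059 (r = 0.995, 0.983 and 0.976). Unc13b had 7.41, 7.25 and 6.82 FPKM in WKY, 5.07, 6.24 and 5.99 in SHR, and 6.59, 6.25 and 6.18 in SHR_OMT. Ece1 went most closely with Itga6, an integrin subunit gene (r = 0.975), Tspan6 (0.965) and Cmip (0.964), and Itga6 had 54.33, 47.33 and 60.79 FPKM in WKY, 43.67, 45.23 and 44.62 in SHR, and 41.57, 44.27 and 41.30 in SHR_OMT. Edn1 went most closely with Tceal5, Mcm9 and Gpr27 (r = 0.927, 0.925 and 0.921), all of them at 2.49 FPKM or less. Among the 7 tested members themselves, r over the 9 samples ran from −0.601 for Agtr1a with Edn1 to 0.568 for Edn1 with Ece1, and r was −0.42 for Ednra with Ednrb.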

How the data were processed

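Per the file headers, values were deposited as FPKM by gene and library, and the authors added log2 ratios and q-values of their own for 2 comparisons (SHR over WKY, SHR_OMT over SHR), which are named as theirs wherever printed. Tools named in the submitters' processing notes are RSEM 1.3.1, Bowtie2 and DESeq2 1.4.5, with the build Rnor_6.0, and neither order nor settings. Of 22864 gene rows 19294 had values. Read counts were not analysed here, so depth is unknown and no count model was fitted. The FPKM sum was 587526 to 606633 and 12231 to 12514 genes reached 1 FPKM per library, and r between libraries of log2(FPKM + 1) was 0.973 to 0.991.

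Genes with a mean of at least 1 FPKM over the 9 samples (12451) were tested with limma 3.58.1 in R 4.3.3 on log2(FPKM + 1), with the 3 groups in a single fit (6 residual degrees of freedom), a variance trend, two-sided tests and Benjamini-Hochberg adjustment over all genes tested, at a threshold of 0.05. The fit was tested on data simulated with independent normal noise, and only the recovery of changes larger than that of any called member was required. Passing it does not bear on effects of the called members' size. RSEM divides reads between similar genes. Upstream sequences came from RefSeq (GRCr8), matched by symbol. Figures were drawn with matplotlib 3.10.9. Ratios were compared by exact permutation.

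The 9 members were named whatever their result. From 12 further lists the genes named were mainly those with the smallest p, up to 4 a list and comparison, with genes under the level for testing. Ctsd, Hsd11b1, Enpep, Nr3c2, Anpep, Acta2, Myh11, Smtn, Des, Myl2, Myl7 and Nppa were named after their values were seen. Some genes of the pathway are not reported here. Members and lists were chosen with earlier results of these data known. Mast cell, macrophage, Schwann cell, heart muscle and atrial markers were also listed, with 1, 0, 1, 5 and 0 called higher and 1, 0, 1, 0 and 2 lower in SHR against WKY. Of all tested genes 10.8% were called higher and 23.1% lower there.

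Alternatives were a pseudocount of 0.1, no filter, a mean of at least 5 FPKM, median-of-ratios scaling, quantile normalization, only the groups compared, no variance trend, sample weights, the replicate number as a block, and each sample left out.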

Additional observations from a re-analysis of the deposited data

How the results depend on the processing

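Over the 18 alternatives, the number of members called in SHR against WKY was 2, but 1 with median-of-ratios scaling, and 1 to 2 with each sample left out in turn, the member lost being Ece1. In SHR_OMT against SHR it was 0 in every alternative run. In SHR_OMT against WKY it was 2, but 1 with no filter on low values, 1 at a mean of at least 5 FPKM (where Edn1 and Agtr1a are not tested) and 1 with the replicate block, 3 with only the groups compared, and 1 to 3 with each sample left out.

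Estimates of members that were not called turned sign in 16 cases. In SHR against WKY Ace was 0.018 without WKY replicate 2 and 0.006 without SHR replicate 1. Agtr1a was 0.014 with median-of-ratios scaling, 0.068 with quantile normalization and 0.044 without WKY replicate 2. Edn1 was 0.006 with median-of-ratios scaling, 0.063 with quantile normalization, 0.011 without WKY replicate 1 and 0.073 without SHR replicate 2, and Ednrb was −0.028 without WKY replicate 2. Ace was 0.005 in SHR_OMT against SHR without SHR replicate 3. In SHR_OMT against WKY Ednrb was −0.119 without WKY replicate 2, and Atp6ap2 was 0.012 with median-of-ratios scaling, 0.005 with sample weights, 0.013 without WKY replicate 3 and 0.072 without SHR_OMT replicate 3. With each sample left out in turn these estimates ran, in SHR against WKY, from −0.313 to 0.018 for Ace, −0.111 to 0.044 for Agtr1a, −0.232 to 0.073 for Edn1 and −0.028 to 0.308 for Ednrb. In SHR_OMT against SHR Ace ran from −0.313 to 0.005, and in SHR_OMT against WKY Ednrb ran from −0.119 to 0.217 and Atp6ap2 from −0.112 to 0.072. The causes were not tested.

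Samples with the same replicate number did not deviate together (r of deviations −0.109 to 0.0276, 0 of 9 pairs over 0.1). This cannot show whether the numbers pair samples, because a pairing with small effects could leave r near 0. With the replicate block 2, 0 and 1 members were called for SHR against WKY, SHR_OMT against SHR and SHR_OMT against WKY, the member lost being Edn1 (limma adjusted p = 0.0514). Over all genes SHR_OMT against SHR had 19 higher and 11 lower calls, and 4 to 24 and 2 to 13 over the alternatives. In SHR against WKY 971 to 2033 were called higher and 1789 to 2991 lower, and in SHR_OMT against WKY 866 to 1651 and 1027 to 2106. The medians of all genes moved by less than 0.1 under either scaling. In SHR against WKY the median went from −0.084 to −0.005 with median-of-ratios scaling and to −0.009 with quantile normalization. The first of these scalings also lost the Ece1 call there. Depth is unknown, so counting error could not be set beside the low members Agt, Mas1, Edn1 and Agtr1a.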
